A study of Sus scrofa with 12 samples.

Results

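The genes described here are those of hepcidin and liver iron handling, 10 symbols chosen by name, namely HAMP, which encodes hepcidin, its regulators BMP6 and TFR2, the uptake genes TFRC and SLC39A14, the exporter SLC40A1, the storage subunit FTH1, and the iron or heme carriers TF, CP and HPX. All 10 were among the 31694 gene rows of each mRNA library, 9 of the 10 were tested, as they reached 0.5 RPKM (reads per kilobase of gene, scaled to the library total) in 3 or more libraries, and SLC40A1 was listed at 0 in every library. The genes were chosen with the difference between the breeds already known, so their own breed differences are given as a description and carry no test. The libraries came from the liver of 3 Jinhua (JH) and 3 Landrace (LD) pigs, all uncastrated males of 70 days of age, with 1 mRNA and 1 small RNA library per pig. For mRNA the authors took LD as the control group. The labels give no litter or day of sampling, so these cannot be told apart from breed.

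Hepcidin, encoded by HAMP, is the peptide hormone with which the liver sets the iron level of the body. It binds the iron exporter ferroportin (SLC40A1) and causes its loss from the cell surface, so that less iron enters the plasma. Hepatocytes raise HAMP when iron-laden transferrin is sensed by transferrin receptor 2 (TFR2) and when the bone morphogenetic protein BMP6, made largely by sinusoidal endothelial cells, signals through SMAD proteins, and also in inflammation through IL6 and STAT3. The classical transferrin receptor TFRC is controlled the other way, since iron regulatory proteins stabilize its messenger RNA when a cell is short of iron.

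The RPKM of the mRNA libraries were divided by totals of 5744908 to 7914515 reads, the lowest in JH1, and between 16080 and 17078 genes were above 0 per library. Albumin was the most abundant of the hepatocyte markers, with 29866 ± 3267 RPKM in JH against 47923 ± 8861 RPKM in LD (SD, n = 3 per breed), and an adjusted p of 0.258 from limma. Of the 8 hepatocyte markers 7 were tested and none was called, APOA1 had the largest difference (log2 fold change of JH over LD 0.90, adjusted p = 0.203), and APOB was listed at 0 in every library. A row at 0 in all 6 libraries was found for 12 of the 101 pathway genes with a row, among them HMOX1 and SMAD1. Over all genes it was found for 12080 of 31694 rows. Such a row may be a failed estimate, which was not tested.

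HAMP was far more abundant in JH than in LD. The expression of HAMP was 515, 226 and 165 RPKM in pigs JH1, JH2 and JH3 and 2.47, 25.7 and 21.2 RPKM in pigs LD1, LD2 and LD3. The lowest JH value lay above the highest LD value, and LD1 stood below the other LD pigs. These values rest on 1181, 701 and 508 reads in the JH libraries and on 7, 81 and 67 reads in the LD libraries. The 7 reads of LD1 allow an RPKM between 0.993 and 5.09 (exact Poisson interval, 95%, counting error only). The mean was 302 ± 187 RPKM in JH against 16.5 ± 12.3 RPKM in LD (SD, n = 3 per breed), a ratio of the means of 18.3. The log2 fold change, JH over LD on the log2(RPKM + 0.1) scale, came to 4.58 with a standard error (SE) of 0.80. When 1 library was left out it lay between 3.51, without LD1, and 5.18, without LD2. By RPKM, a level per length, HAMP ranked between 172 and 378 of all genes in the JH libraries and between 2145 and 8857 in the LD libraries.

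The spread within a breed was wide as well. The highest HAMP value was 3.13 times the lowest among the JH pigs and 10.4 times the lowest among the LD pigs. No other of the 9 genes varied that much within LD, where the next largest range was that of TFRC with 3.42 times. HAMP stands next to USF2 and MAG in the RefSeq gene order of the later assembly Sscrofa11.1, a look at the neighbours that was chosen after the values were seen. USF2 was at 62.4 ± 17.4 RPKM in JH against 58.2 ± 13.9 RPKM in LD (SD, n = 3 per breed, log2 fold change 0.08, SE 0.30), and limma gave an adjusted p of 0.913 (Benjamini-Hochberg). For MAG the log2 fold change was 0.85 (SE 0.60, adjusted p = 0.498 from limma), at levels below 1 RPKM in every library.

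**Figure D1:**
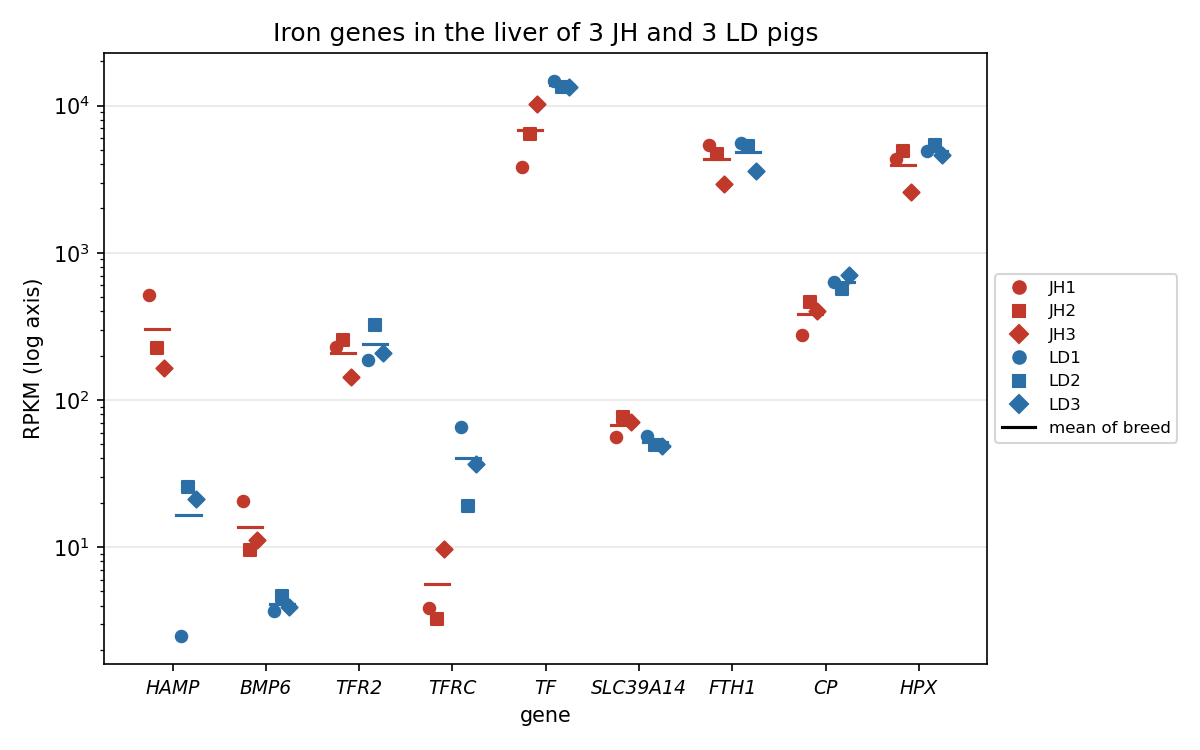
Expression of 9 iron genes (horizontal axis) as RPKM on a log axis (vertical axis) in each of 3 JH (red) and 3 LD (blue) livers, with the mean of each breed as a short line and SLC40A1 left out because it was listed at 0. HAMP lies between 165 and 515 RPKM in JH and between 2.47 and 25.7 RPKM in LD, while TFRC lies the other way round.

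BMP6, the ligand that raises hepcidin through BMP receptors, was also higher in JH. Its expression was 20.6, 9.57 and 11.2 RPKM in pigs JH1, JH2 and JH3 and 3.69, 4.63 and 3.92 RPKM in pigs LD1, LD2 and LD3, from 122 to 194 reads per JH library and 43 to 60 reads per LD library. All JH values lay above all LD values, and the LD pigs were close together while JH1 stood above the other JH pigs. The mean was 13.8 ± 5.93 RPKM in JH against 4.08 ± 0.489 RPKM in LD (SD, n = 3 per breed), a ratio of 3.38, and the log2 fold change was 1.66 (SE 0.32). The pig with the most BMP6 in each breed, JH1 and LD2, also had the most HAMP, and LD1 had the least of both. Within JH the order was not the same throughout, since JH3 had more BMP6 than JH2 but less HAMP. In LD1 to LD3 these orders rest on 43, 60 and 51 reads for BMP6 and on 7, 81 and 67 reads for HAMP. Counting error may change parts of the order, and no link within a breed is read from it.

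TFR2, the hepatocyte sensor of transferrin-bound iron, differed little. Its expression was 228, 256 and 142 RPKM in pigs JH1, JH2 and JH3 and 187, 324 and 208 RPKM in pigs LD1, LD2 and LD3, so that the breeds overlapped. The log2 fold change was -0.20 (SE 0.32), and it lay between -0.37 and 0.06 when 1 library was left out.

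TFRC, the receptor that takes up transferrin-bound iron, was lower in JH. It was at 3.87, 3.25 and 9.71 RPKM in pigs JH1, JH2 and JH3 and 65.3, 19.1 and 36.8 RPKM in pigs LD1, LD2 and LD3, from 53, 60 and 179 reads in JH and 1105, 359 and 694 reads in LD. No JH pig reached the lowest LD value. The mean was 5.61 ± 3.56 RPKM in JH against 40.4 ± 23.3 RPKM in LD (SD, n = 3 per breed), which is 7.20 times the JH mean, with a log2 fold change of -2.82 (SE 0.51). Among the LD pigs the order of TFRC, from LD1 over LD3 to LD2, was the reverse of that of HAMP. The HAMP order of LD2 and LD3 rests on 81 against 67 reads. In JH the pig with the least HAMP, JH3, had the most TFRC. The order in JH was not fully reversed, since JH1 had the most HAMP but JH2 the least TFRC. With 3 pigs per breed, no link within a breed is read from these orders. The ratio of HAMP to TFRC, both in RPKM and so per length, was 133 in JH1, 69.8 in JH2 and 16.9 in JH3, against 0.0378 in LD1, 1.35 in LD2 and 0.577 in LD3.

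TFRC is also abundant on immature red cells, and markers of red cells had lower values in JH too. Of the 10 red cell markers looked for, 7 had a row and 2 were tested, and the summed RPKM of the 7 ranged from 90.4 to 123 in JH and from 214 to 394 in LD. The beta globin HBB was 98.3, 89.1 and 119 RPKM in JH1 to JH3 and 389, 210 and 230 RPKM in LD1 to LD3, and passed the test lower in JH (log2 fold change -1.39, SE 0.29, adjusted p = 0.0459 from limma). This call was lost with the replicate number as a block (adjusted p = 0.0526), with no filter on low values and whenever 1 library other than JH3 was left out. ALAS2, the erythroid enzyme of heme synthesis, was at 1.68 ± 1.36 RPKM in JH against 3.84 ± 1.07 RPKM in LD (SD, n = 3 per breed), without passing (adjusted p = 0.189). The alpha globins were not analysed here. AHSP (row LOC102164536) was at 0.424 RPKM in LD2, 0.845 RPKM in LD3 and 0 in the other pigs, CA1 was above 0 in LD2 alone, at 0.319 RPKM, and the part of red cells in the TFRC values was not tested. In bulk liver, fewer cells of a type and less RNA per cell cannot be told apart.

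SLC39A14 (ZIP14), which imports iron that is not bound to transferrin, was 56.2, 76.3 and 70.5 RPKM in JH1 to JH3 and 56.4, 49.3 and 48.6 RPKM in LD1 to LD3. JH1 lay just below LD1, so the breeds overlapped, and the log2 fold change was 0.39 (SE 0.23). SLC40A1, the exporter on which hepcidin acts, was listed at 0 in all 6 libraries. RefSeq also pairs the symbol with the row LOC100737517, which was at 0.0614 RPKM in LD3 and at 0 in the other libraries. The level of ferroportin can therefore not be judged from these values.

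FTH1, the heavy subunit of the ferritin shell that stores iron, was among the most abundant of the genes, with 5409, 4716 and 2922 RPKM in pigs JH1, JH2 and JH3 and 5607, 5293 and 3587 RPKM in pigs LD1, LD2 and LD3. The breeds overlapped and replicate 3 was lowest in both, with a log2 fold change of -0.17 (SE 0.32). FTL, the light subunit, went with it, and the ratio of FTL to FTH1 stayed between 1.34 and 1.53 in the 6 libraries. Ferritin genes have near-identical pseudogene copies, so reads may be shared among rows and these levels are uncertain. Ferritin is known to be controlled mainly at translation, which these libraries do not measure.

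TF, the plasma iron carrier transferrin, was lower in JH. It was 3829, 6392 and 10274 RPKM in pigs JH1, JH2 and JH3 and 14756, 13325 and 13344 RPKM in pigs LD1, LD2 and LD3. The LD values lay within 1.11 times of one another, while the JH values spanned 2.68 times and JH3 came closest to LD. The mean was 6831 ± 3245 RPKM in JH against 13808 ± 821 RPKM in LD (SD, n = 3 per breed), with a log2 fold change of -1.13 (SE 0.36) that lay between -1.48, without JH3, and -0.77, without JH1. Relative to albumin, which was lower in JH as well, the breeds overlapped, with TF at 11.4%, 23.2% and 36.1% of the ALB value in JH1 to JH3 and at 28.3%, 35.3% and 24.8% in LD1 to LD3.

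CP, the plasma ferroxidase ceruloplasmin, was 276, 463 and 405 RPKM in JH1 to JH3 and 629, 567 and 710 RPKM in LD1 to LD3. All JH values lay below all LD values, and the log2 fold change was -0.76 (SE 0.27). HPX, the heme carrier hemopexin, was 4361, 4943 and 2591 RPKM in JH1 to JH3 and 4882, 5387 and 4591 RPKM in LD1 to LD3. HPX overlapped between the breeds, with a log2 fold change of -0.37 (SE 0.30).

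By mean RPKM the genes ran TF, FTH1, HPX, CP, HAMP, TFR2, SLC39A14, BMP6, TFRC in JH, and TF, HPX, FTH1, CP, TFR2, SLC39A14, TFRC, HAMP, BMP6 in LD. In JH the ranges of TF, FTH1 and HPX overlapped, as did those of CP and HAMP and of HAMP and TFR2, and those of BMP6 and TFRC overlapped narrowly. In LD the ranges of HPX and FTH1 overlapped, as did those of TFRC with SLC39A14 and with HAMP and those of HAMP and BMP6. HAMP thus stood at place 5 of the 9 genes in JH and at place 8 in LD.

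Of the 9 tested genes, HAMP and BMP6 were past the threshold for differentially expressed genes (DEGs) higher in JH, and TFRC was past it lower in JH. The limits were 0.05 for the adjusted p (Benjamini-Hochberg) and 1 for the size of the log2 fold change, with limma over all 12993 tested genes, of which 310 (2.39%) were called, 133 (1.02%) higher and 177 (1.36%) lower in JH. The 3 JH values lay apart from the 3 LD values in 5 of the 9 genes (HAMP and BMP6 higher, TFRC, TF and CP lower in JH), against 23.4% of all tested genes. Nothing is read from these counts, because the genes were chosen on this contrast. The median log2 fold change was -0.20 over the 9 genes and 0.04 over all tested genes, and the signs of all 9 stayed the same under the other pseudocount, filter and scalings tried.

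**Figure D2:**
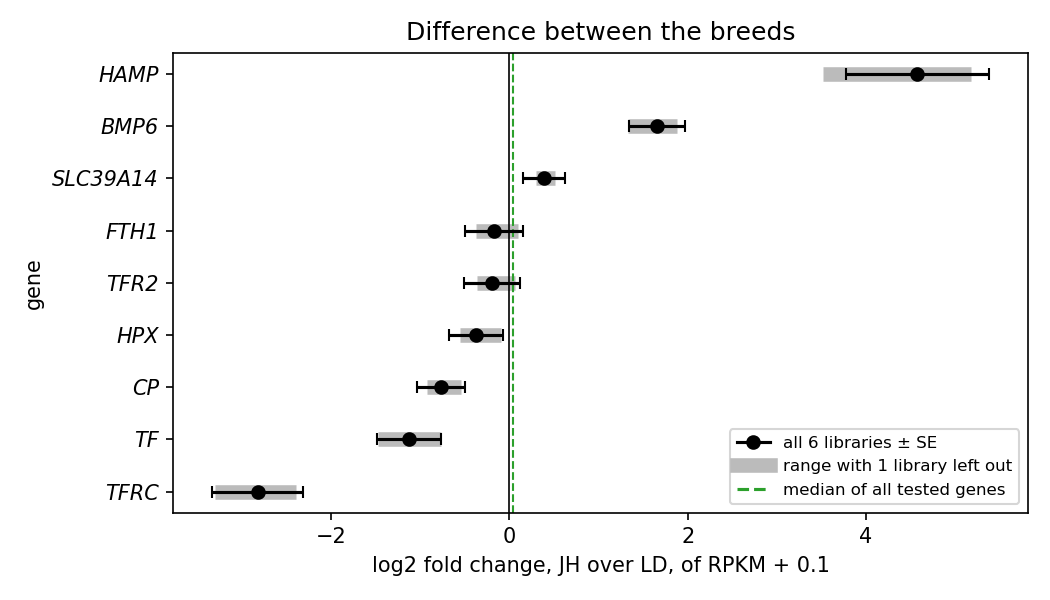
Log2 fold change of JH over LD on the log2(RPKM + 0.1) scale (horizontal axis) for the 9 tested iron genes (vertical axis), with the standard error as a bar, the range of the fold change when any 1 library was left out in grey, and the median of all tested genes as a dashed line. HAMP at 4.58 and TFRC at -2.82 lie farthest from 0, and the grey ranges of TFR2 and FTH1 cross 0.

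The other genes of the pathway were taken from lists written by role. Together these held 112 genes outside the 10, of which 101 had a row and 78 were tested. In limma 0 of the 78 passed the threshold higher in JH and 2 passed it lower in JH (BLVRA and GLRX5), and 18 of the 78 had an unadjusted p under 0.05, against 2321 of the 12993 genes. The median log2 fold change of the 78 was -0.05.

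Genes that BMP signals raise had higher means in JH, but none of them passed the test. Of 7 such genes ID3 was listed at 0, and all 6 tested genes had a log2 fold change above 0, with a median of 0.63, against 6878 of 12993 above 0 among all genes. ID1, a target of the same SMAD signal as HAMP, was 268, 97.9 and 86.1 RPKM in pigs JH1, JH2 and JH3 and 45.6, 44.8 and 8.36 RPKM in pigs LD1, LD2 and LD3. Every JH value lay above every LD value. The JH pigs stood in the same order for ID1 as for HAMP, but the LD pigs did not, since LD1 had the highest ID1 and the lowest HAMP of the LD pigs and LD3 had the lowest ID1. Its log2 fold change was 2.34 (SE 0.67, unadjusted p = 0.00626, adjusted p = 0.114 from limma), which did not pass. The highest ID1 value was 3.12 times the lowest in JH and 5.45 times the lowest in LD. The others, named here after their values were seen, had log2 fold changes of 1.01 for ATOH8, 0.72 for BAMBI, 0.53 for SMAD6, 0.38 for SMAD7 and 0.22 for ID2, with adjusted p between 0.219 and 0.712 from limma. JH1 had the highest value of ID1, ATOH8, SMAD6, SMAD7 and BAMBI among all 6 pigs.

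**Figure D3:**
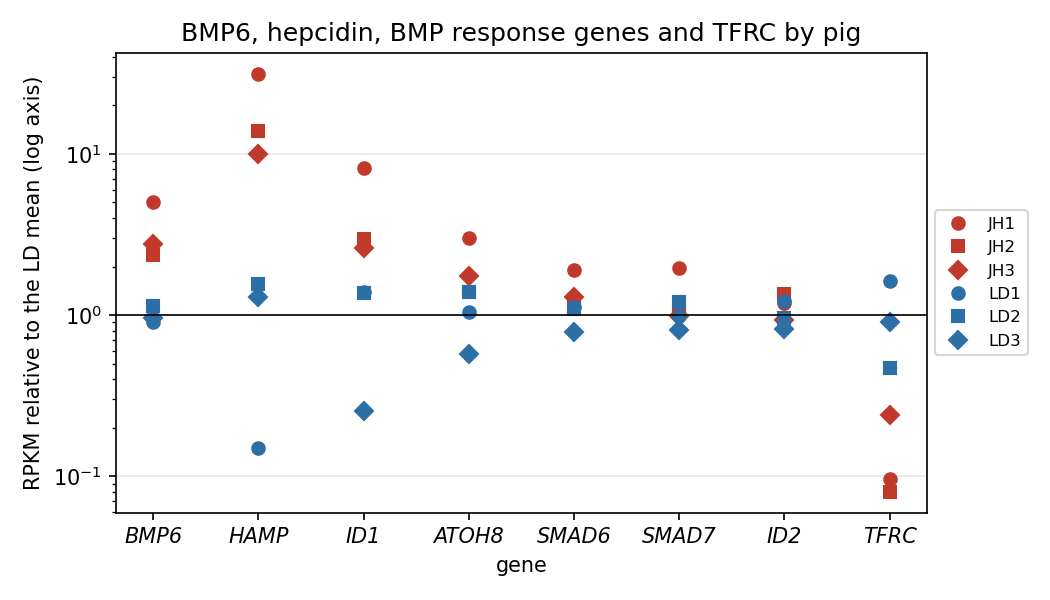
RPKM of each pig divided by the LD mean of the gene (vertical axis, log scale) for BMP6, HAMP, 5 BMP response genes and TFRC (horizontal axis), JH pigs in red and LD pigs in blue. All JH points of BMP6, HAMP, ID1 and SMAD6 lie above all LD points, those of TFRC lie below, and for ATOH8, SMAD7 and ID2 the breeds overlap.

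The receptors and modulators between BMP6 and the hepcidin gene had mostly lower values in JH, and none passed. Of the 18 listed, 10 were tested, 3 with a log2 fold change above 0 and 7 below, with a median of -0.35. Hemojuvelin (HFE2 in the files), the co-receptor of BMP signals to hepcidin, was the most abundant over all 6 libraries though below FURIN in LD, with 95.9 ± 18.3 RPKM in JH against 73.4 ± 14.1 RPKM in LD (SD, n = 3 per breed, log2 fold change 0.39, SE 0.26, adjusted p = 0.472 from limma). The largest difference was that of the receptor BMPR2, with 3.08 ± 1.27 RPKM in JH against 6.19 ± 0.86 RPKM in LD (SD, n = 3 per breed, log2 fold change -1.05, SE 0.32, adjusted p = 0.139). TMPRSS6, the protease that cleaves hemojuvelin and thereby lowers hepcidin, named after its values were seen, was at 53.6 ± 10.5 RPKM in JH against 66.5 ± 12.5 RPKM in LD (SD, n = 3 per breed, adjusted p = 0.572). The ligand BMP2 was above 0 in JH1 alone, SMAD1 and SMAD5 were listed at 0, the erythroid hepcidin inhibitor ERFE (FAM132B in the files) was below 0.5 RPKM in every library, and HFE was not analysed here.

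Markers of sinusoidal endothelial cells, the main source of BMP6, were looked at beside it. Of 10 such markers 9 were tested, 2 with a log2 fold change above 0 and 7 below, and none was called. Their summed RPKM, in which the most abundant gene weighs most, ranged from 246 to 372 in JH and from 296 to 353 in LD. CLEC4G, the most abundant, was at 160 ± 52.0 RPKM in JH against 170 ± 31.3 RPKM in LD (SD, n = 3 per breed, adjusted p = 0.871 from limma), and KDR had the largest difference, with 9.94 ± 1.28 RPKM in JH against 18.6 ± 0.75 RPKM in LD (SD, n = 3 per breed, log2 fold change -0.91, SE 0.23, adjusted p = 0.0811). Under quantile normalization KDR passed lower in JH (adjusted p = 0.0493). PECAM1 and VWF, named after their values were seen, were lower in JH as well, with log2 fold changes of -0.81 and -0.66. Their adjusted p were 0.0988 and 0.406 from limma. The remaining tested markers lay nearer 0, with log2 fold changes of -0.48 for STAB2, -0.15 for STAB1, -0.11 for LYVE1, 0.07 for FCGR2B and 0.09 for OIT3. Adjusted p for these lay between 0.638 and 0.904 from limma. Stellate cell markers had lower values in JH for all 8 tested, and COL1A1 (log2 fold change -2.77), COL3A1 (-1.75) and LRAT (-1.72) fell, with adjusted p between 0.0144 and 0.0384 from limma, and COL3A1 missed the limit without LD1 (0.0811) or LD2 (0.0674). LRAT was called without JH3 but in no other fit that left out 1 library, nor with the replicate block (0.064) or with no filter on low values (0.0632). With a pseudocount of 1 its log2 fold change was -0.94, short of the limit on its size. Their summed RPKM was 60.05 to 80.3 in JH and 160 to 296 in LD.

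The inflammatory arm showed no called gene. Of its 12 signalling genes 8 were tested, 1 with a log2 fold change above 0 and 7 below, with a median of -0.50. IL6 had at most 1 read in every library, and SOCS3, IL22RA1 and INHBB were listed at 0. The receptor IL1R1, the most abundant over all 6 libraries though below CEBPA in JH, was at 96.4 ± 31.7 RPKM in JH against 131 ± 40.5 RPKM in LD (SD, n = 3 per breed, adjusted p = 0.511 from limma), and IL6R had the largest difference, with 5.34 ± 1.60 RPKM in JH against 10.3 ± 1.40 RPKM in LD (SD, n = 3 per breed, log2 fold change -0.96, SE 0.28, adjusted p = 0.121).

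Genes listed as acute phase proteins, most of which the liver makes under the same cytokines, lay in both directions. Of 13 tested, 6 had a log2 fold change above 0 and 7 below, with a median of -0.03, and none was called. Haptoglobin (HP), the most abundant and also a carrier of free hemoglobin, was 8464, 19301 and 9512 RPKM in pigs JH1, JH2 and JH3 and 8417, 9067 and 10727 RPKM in pigs LD1, LD2 and LD3 (log2 fold change 0.31, SE 0.35, adjusted p = 0.691 from limma). JH2 stood far above the other pigs for HP. For HAMP, JH1 was highest and JH2 came next, and a link between HP and HAMP was not tested. SAA4 had the largest fitted difference, with 48.8, 0 and 17.9 RPKM in JH1 to JH3 and 210, 92.6 and 139 RPKM in LD1 to LD3 (adjusted p = 0.201), the size of which depends on the pseudocount because JH2 is at 0. Of the 13, 5 had an unadjusted p under 0.05 in limma. Besides SAA4 these were, named after their values were seen, LCN2, SAA2 and SAA3, higher in JH, and LBP, lower in JH. Their log2 fold changes were 2.60, 1.94, 1.60 and -2.03, with adjusted p between 0.184 and 0.26 from limma. LCN2 was called higher in JH in the fit without JH3 alone (adjusted p = 0.0141). Some serum amyloid genes are close copies of one another and can share reads.

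Among the genes of heme handling, biliverdin reductase A (BLVRA), which turns the biliverdin left by heme breakdown into bilirubin, fell in JH. It was 14.5, 11.1 and 12.1 RPKM in JH1 to JH3 and 37.9, 33.6 and 35.3 RPKM in LD1 to LD3, from 108 to 121 reads in JH and 343 to 361 in LD. The pigs of each breed lay close together and the breeds far apart, with a log2 fold change of -1.50 (SE 0.23, adjusted p = 0.0135 from limma). The call was lost without JH2 (adjusted p = 0.0528), without LD1 (0.0789) and without LD2 (0.0501). The other 7 tested genes of this list, 2 with a log2 fold change above 0 and 5 below, did not pass, and CD163, HMOX1 and SLC48A1 were listed at 0. Of the 8 tested macrophage markers, the cells that take up old red cells and release their iron, 5 had a log2 fold change above 0 and 3 below, none was called, and their summed RPKM was 877 to 1903 in JH and 1148 to 1297 in LD. C1QC, the most abundant, was at 550 ± 311 RPKM in JH against 473 ± 33.6 RPKM in LD (SD, n = 3 per breed), and C1QB had the largest difference (log2 fold change 1.76, SE 0.70, adjusted p = 0.234), which passed without LD1 (adjusted p = 0.02).

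Of 15 tested genes of mitochondrial iron and iron-sulfur clusters, 11 had a log2 fold change above 0 and 4 below, with a median of 0.25. GLRX5, which passes new iron-sulfur clusters on to other proteins, fell in JH. It was 80.7, 89.4 and 68.1 RPKM in JH1 to JH3 and 208, 250 and 144 RPKM in LD1 to LD3, without overlap (log2 fold change -1.31, SE 0.27, adjusted p = 0.0446 from limma). Of the fits without 1 library it was called in that without LD3 alone, with an adjusted p from 0.0618 to 0.16 in the others, and it was lost with no filter on low values (adjusted p = 0.0621). HSPA9, the chaperone of cluster transfer and the most abundant of the list over all 6 libraries though below GLRX5 in LD, was at 174 ± 4.50 RPKM in JH against 148 ± 4.06 RPKM in LD (SD, n = 3 per breed, log2 fold change 0.24, SE 0.21, adjusted p = 0.599).

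The genes of iron import, storage and sensing did not pass the test. Of the 6 tested for import, 3 had a log2 fold change above 0 and 3 below, with the ferrireductase STEAP3 at 45.6 ± 16.6 RPKM in JH against 34.8 ± 14.1 RPKM in LD (SD, n = 3 per breed, adjusted p = 0.645 from limma), and lactotransferrin (LTF) with the largest difference (log2 fold change -1.41, SE 0.81, adjusted p = 0.405). LTF was near the floor, at 0.0753, 0.669 and 0.559 RPKM in JH1 to JH3 and 0.304, 1.31 and 2.79 RPKM in LD1 to LD3. JH1 held 1 read of it, and with a pseudocount of 1 its log2 fold change was -0.68. Of the 4 for storage, chaperones and export, the light ferritin FTL was at 6364 ± 2062 RPKM in JH against 6581 ± 1328 RPKM in LD (SD, n = 3 per breed, adjusted p = 0.923), and the iron chaperone PCBP1 had a log2 fold change of 0.35 (SE 0.27, adjusted p = 0.535). Of the 9 for iron and oxygen sensing, the most abundant was ACO1, an iron regulatory protein that binds TFRC messenger RNA, with 58.7 ± 32.7 RPKM in JH against 62.7 ± 15.7 RPKM in LD (SD, n = 3 per breed, adjusted p = 0.812). IREB2, the other iron regulatory protein, was below 0.5 RPKM in every library and was not tested. The hypoxia factor EPAS1 had the largest difference, with 17.0 ± 3.03 RPKM in JH against 32.4 ± 4.69 RPKM in LD (SD, n = 3 per breed, log2 fold change -0.93, SE 0.24, adjusted p = 0.0922), and all its JH values lay below all its LD values.

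**Figure D4:**
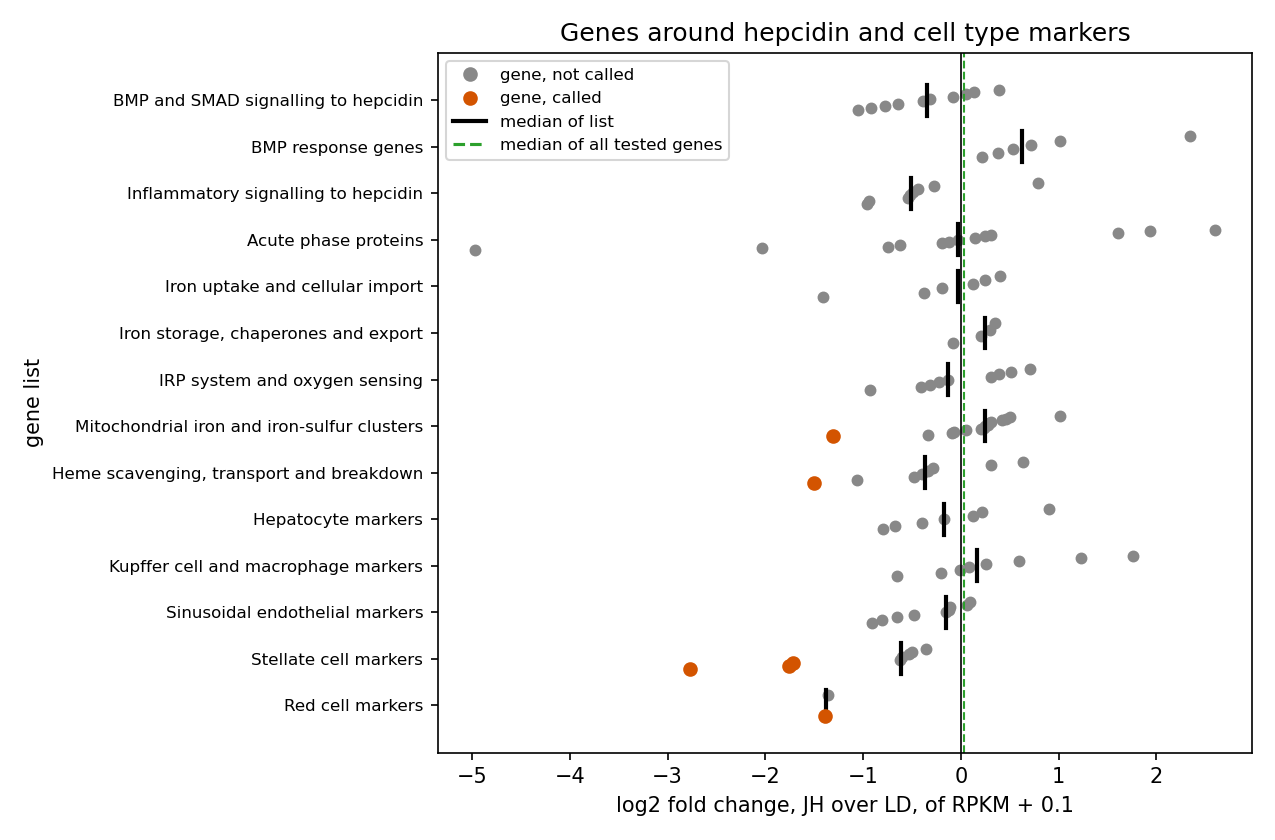
Log2 fold change of JH over LD on the log2(RPKM + 0.1) scale (horizontal axis) for each tested gene of the lists (vertical axis), called genes in orange, the median of each list as a black line and the median of all tested genes as a dashed line. The 6 BMP response genes all lie above 0 with none called, and the called genes, BLVRA, GLRX5, HBB and 3 stellate cell markers, all lie below 0.

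The 5 tested genes whose profile over the 6 libraries was most like that of HAMP, by the mean absolute difference of the log2(RPKM + 0.1) values after each gene's mean was subtracted, were USH1C (0.53), LOC100518586 (0.75), LOC100627133 (0.77), LOC102166331 (0.80) and LIPK (0.80). All 5 were far less abundant than HAMP, between 1.30 and 4.06 RPKM in the JH mean. USH1C was 4.80, 2.61 and 2.02 RPKM in JH1 to JH3 and 0, 0.12 and 0.12 RPKM in LD1 to LD3. Its order of pigs within JH is that of HAMP and LD1 is lowest. As USH1C was picked for its likeness to HAMP, nothing is read from this order. The LD values of USH1C and LOC102166331 lie near 0, so the size of their likeness depends on the pseudocount of 0.1. By this measure BMP6 came at place 144 (1.46) and ID1 at place 254 (1.59).

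The small RNA libraries are a readout that did not enter the choice of the genes. By the step of their values they held 10672380 to 13932320 clean reads, a reading that is not certain because the lowest value above 0 in each library corresponds to 10 reads, and 1 read was worth 0.0718 to 0.0937 RPM (reads scaled to clean reads of the library). Of 11 miRNAs listed for targets among iron genes, 9 had a row and were tested, and 0 of the 9 passed the same limits, against 23 of the 241 tested miRNAs (9.54%). At an unadjusted p under 0.05 there were 3, ssc-miR-320, ssc-miR-130a and ssc-miR-125b, all lower in JH. Their log2 fold changes of JH over LD, on the log2(RPM + 0.5) scale, were -0.51, -0.55 and -0.59, with adjusted p of 0.123, 0.144 and 0.144 from limma, against a median of -0.30 over all tested miRNAs. ssc-miR-320, for which TFRC has been described as a target, was 288, 353 and 346 RPM in JH1 to JH3 and 465, 465 and 474 RPM in LD1 to LD3. An effect of this miRNA on TFRC was not tested. ssc-miR-122, described to act on hemojuvelin and HFE, was at 201743 ± 69845 RPM in JH against 193588 ± 23124 RPM in LD (SD, n = 3 per breed, log2 fold change 0.01, SE 0.24, adjusted p = 0.979). The other 5, ssc-miR-148a-3p, ssc-miR-152, ssc-miR-210, ssc-miR-22-3p and ssc-miR-29a, had log2 fold changes between -0.32 and 0.49, with adjusted p between 0.191 and 0.76.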

How the data were processed

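Liver mRNA and small RNA of 3 JH and 3 LD pigs were compared, with groups and replicate numbers taken from the sample titles. The authors aligned 50 bp single reads to Sus scrofa 10.2 with TopHat2 2.0.13, took gene counts from gfold, and the RPKM they deposited are reads scaled to gene length and library total. For miRNA the authors deposited RPM, reads scaled to clean reads of the library, of 411 miRNAs. Raw reads and read counts were not used here. Totals and whole reads were recovered from the steps of the mRNA values and are used for counting error only. The miRNA totals were read in the same way but are less certain, since no miRNA value above 0 lies under 10 reads, and the strand of counting is not given in the sources used here.

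JH and LD were compared with limma 3.58.1 (R 4.3.3) using its trended variance prior. Genes entered as log2(RPKM + 0.1) if 3 or more libraries had 0.5 RPKM, miRNAs as log2(RPM + 0.5) if 3 or more libraries had 1 RPM, with Benjamini-Hochberg adjustment over all features tested. Fold changes on these scales understate the change of low genes. The code was tested on simulated data. The genes and lists were chosen with earlier results of these data known. Named are the 10 genes, called genes of the lists, the most abundant and the most changed gene of each list, the listed miRNAs and the 5 genes most like HAMP. Of 157 list genes 131 were matched by symbol, 10 by the gene number RefSeq gives (Sscrofa11.1) and 16 had no row. Alternatives were another pseudocount, no filter, quantile or median scaling, the replicate block, unadjusted p for miRNAs, each library left out, and, added after the values were seen, rows named by symbol only. Python 3.11.15 and pandas 2.3.3 served for the tables. Single values of 1 listed marker are not reported here.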

Additional observations from a re-analysis of the deposited data

How the results depend on the processing

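The number of genes called over all genes was 310, 200 with no filter on low values, 253 with the replicate number as a block, and from 79 to 406 when 1 library was left out (164 without JH1, 150 without JH2, 79 without LD1, 114 without LD2, 149 without LD3). Of the pathway genes, the count higher in JH was 0 and lay between 0 and 1 when 1 library was left out, the 1 being LCN2 without JH3. The count lower in JH was 2, with no filter on low values 1, and between 0 and 2 when 1 library was left out (1 without JH1, 0 without JH2, 1 without JH3, 0 without LD1, 0 without LD2, 2 without LD3). It was 2 with rows named by symbol only. The log2 fold change of HAMP lay between 4.40 and 4.58 under the pseudocount, filter, scaling and block settings. The count of listed miRNAs called was 0 under every setting tried, the unadjusted p with its fold limit included.

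Some genes that did not pass changed sign. When 1 library was left out, the log2 fold change of HP lay between -0.0601 (without JH2) and 0.53, that of C1QC between -0.35 (without JH2) and 0.33, that of FTL between -0.30 and 0.19 (without JH3, and 0.02 without LD1), that of ACO1 between -0.64 and 0.18 (without JH3) and that of CLEC4G between -0.35 and 0.13 (without JH3). Under quantile normalization C1QC was at -0.0509. Causes were not tested. As a check of the replicate numbers, the deviation of each JH library from the JH mean was correlated, across genes, with that of the LD library of its number, which gave -0.02, 0.05 and 0.18 for mRNA and -0.07, -0.32 and -0.09 for miRNA, so the numbers were not taken to pair the pigs, and 1 of the 3 JH mRNA libraries correlated best with its own number. With the block 2 pathway genes were called lower in JH and 0 higher. Low reads limit HAMP in LD1 most.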
